A study of Mus musculus with 4 samples.

Results

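TRBV3 is a variable gene segment of the mouse T cell receptor beta chain. The chains described are all assembled beta contigs that carry the V gene name TRBV3 in the T cell receptor (TCR) libraries of 2 tumours. One tumour was p53 KO, grown from MC38 colon carcinoma cells in which p53 had been knocked out with CRISPR-Cas9. The other was WT, grown from MC38 cells with intact p53. Both tumours grew in C57BL/6J mice that were given anti-PD-1, a checkpoint antibody against the PD-1 receptor on T cells, so no untreated tumour stands beside them. Whole tumours were processed with 10x Chromium 5' chemistry, which sequences receptor transcripts from the end that holds the V segment, and each genotype has 1 TCR library. The rule found 72 TRBV3 contigs of 713 beta contigs. They lay in 72 of 677 cells with a beta chain and in 55 of 470 deposited clonotypes, a clonotype being the identifier under which the authors grouped cells by receptor. Counted once per library for each combination of TRBV gene, TRBJ gene and CDR3 nucleotide sequence, they made 50 of 472 distinct beta chains, and this count is the unit used below unless cells are named.

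TRBV3 was chosen by its lower share of receptors in the p53 KO library than in the WT library, so its shares in these libraries are a description and carry no test. With 1 library per genotype no difference between genotypes was tested, and genotype, mouse, tumour and library cannot be told apart. The number of mice, their age and the number of MC38 clones behind each library are not given in the sources used here. Loss of p53 cannot be checked from receptor chains, because tumour cells carry none. Gene expression libraries, of which the series lists 2, were not used here, so cell states such as CD4 or CD8 are not assigned.

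A beta chain is assembled in the thymus by joining 1 V, 1 D and 1 J segment, with bases trimmed and added at the joins, and the result is spliced to a constant region. The V segment itself encodes the CDR1 and CDR2 loops, which mainly meet the MHC molecule, whereas the CDR3 loop spans the joins and lies over the bound peptide. Cells descended from 1 T cell share the same beta chain, although a beta chain found in several cells does not by itself show that they are 1 clone.

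The TRBV3 gene lies on chromosome 6 of the mm10 assembly at 41048394 to 41048824, between Trbv2 and Trbv4. All 23 p53 KO and all 49 WT contigs carried the same CDR1, SNHLY, and the same CDR2, FYNGKV, and 0 contigs of other TRBV genes in either library carried either loop. The loops are shown first because they identify the segment in each contig, in lower case since every base is shared.

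TRBV3 CDR1: tctaatcacctatat
TRBV3 CDR2: ttctacaatggtaaagtc

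The chains then differed only in the CDR3 and its partners. In the sequences that follow, capitals mark the middle of the CDR3, which is the loop without its first 4 and last 4 codons. It spans the joins and can also hold codons of the V and J segments. The p53 KO chains shown are the 2 found in more than 1 cell, and the WT chains are the 6 found in 3 or more cells. Each is named by the amino acids of its middle.

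p53 KO LGGGVSY: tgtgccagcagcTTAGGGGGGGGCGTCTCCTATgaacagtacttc
p53 KO LAALGGL: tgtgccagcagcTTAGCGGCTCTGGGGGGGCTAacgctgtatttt
WT PDWGGADTG: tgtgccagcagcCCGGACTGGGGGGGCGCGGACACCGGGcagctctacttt
WT PGTGRGNNQ: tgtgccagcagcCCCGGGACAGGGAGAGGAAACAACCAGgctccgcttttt
WT FQGAE: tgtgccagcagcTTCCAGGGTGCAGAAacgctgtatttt
WT LVLGVLA: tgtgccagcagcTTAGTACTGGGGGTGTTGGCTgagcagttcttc
WT LVWGN: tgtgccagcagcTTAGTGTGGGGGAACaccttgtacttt
WT SGIYT: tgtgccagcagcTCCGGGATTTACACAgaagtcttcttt

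All 8 open with the same 4 codons, which encode CASS, and 4 of the 8 continue with TTA, a leucine codon.

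The libraries held similar numbers of contigs, cells and UMIs, and the p53 KO library held more reads. The p53 KO library held 709 contigs from 392 cells, 4138 unique molecular identifiers (UMIs, which count captured transcript molecules) and 19853340 reads. The WT library held 733 contigs from 408 cells, 4280 UMIs and 14957044 reads. A TRBV3 contig rested on a median of 4 UMIs in p53 KO (2 to 14), where other TRBV contigs had 6, and on a median of 5 in WT (1 to 29), where others had 4. Contigs of other TRBV genes with under 3 UMIs were 49 of 350 in p53 KO and 68 of 291 in WT, and TRBV3 contigs 5 of 23 in p53 KO and 12 of 49 in WT. Every TRBV3 contig of the p53 KO library had at least 2 UMIs, while 7 WT contigs rested on 1 UMI. The libraries shared 0 cell barcodes. At this depth a count of 0 allows a share of up to 13.0% of TRBV3 cells in p53 KO and up to 6.12% in WT (3 counts of the total). Intervals given below are exact (Clopper-Pearson) 95% binomial intervals, and they and these limits cover counting error only.

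TRBV3 supplied 20 of 232 distinct beta chains in the p53 KO library, which is 8.62% (5.35 to 13.0), and 30 of 240 in the WT library, which is 12.5% (8.59 to 17.4). It was the second most used TRBV gene by chains in p53 KO and the first in WT. The p53 KO share was 0.690 of the WT share, and the ratio did not pass the 1.5-fold limit set for naming genes. Among the 20 TRBV genes with 10 or more chains over both libraries, 10% passed that limit downward in p53 KO, TRBV1 and TRBV15, and 20% passed it upward. Genes whose ratio by chains lay closest to that of TRBV3 were TRBV12-1, with 4 p53 KO and 6 WT chains, TRBV1, with 15 p53 KO and 24 WT chains, and TRBV2, with 7 p53 KO and 9 WT chains.

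Counted by cells, the libraries stood further apart. TRBV3 was in 23 of 351 cells with a beta chain in p53 KO, or 6.55% (4.199 to 9.67), against 49 of 326 cells in WT, or 15.03% (11.3 to 19.4). The p53 KO share was 0.436 of the WT share, and this share is among the values TRBV3 was chosen by. By cells TRBV3 ranked sixth among TRBV genes in p53 KO and first in WT. Of the same 20 genes, 25% passed the 1.5-fold limit downward by cells, TRBV3 among them, and 25% passed it upward, so a gene past this limit was common in these libraries. By cells the ratio of p53 KO to WT share was 0.442 for TRBV15, 0.619 for TRBV12-1, 1.10 for TRBV1 and 1.39 for TRBV2. TRBV1 and TRBV2, near TRBV3 by chains, were thus not near it by cells. Cells of 1 clone are not separate draws, and the largest chains of the p53 KO library had 31 and 30 cells, whereas the largest in WT had 7 cells. Without the 2 largest chains of each library TRBV3 was in 7.93% of cells in p53 KO and 15.65% in WT. Among chains found in 1 cell each, TRBV3 made up 9.52% in p53 KO (18 chains) and 11.2% in WT (21 chains), a smaller gap than among all chains or cells. The plot of TRBV gene use shows both measures gene by gene.

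**Figure D1:**
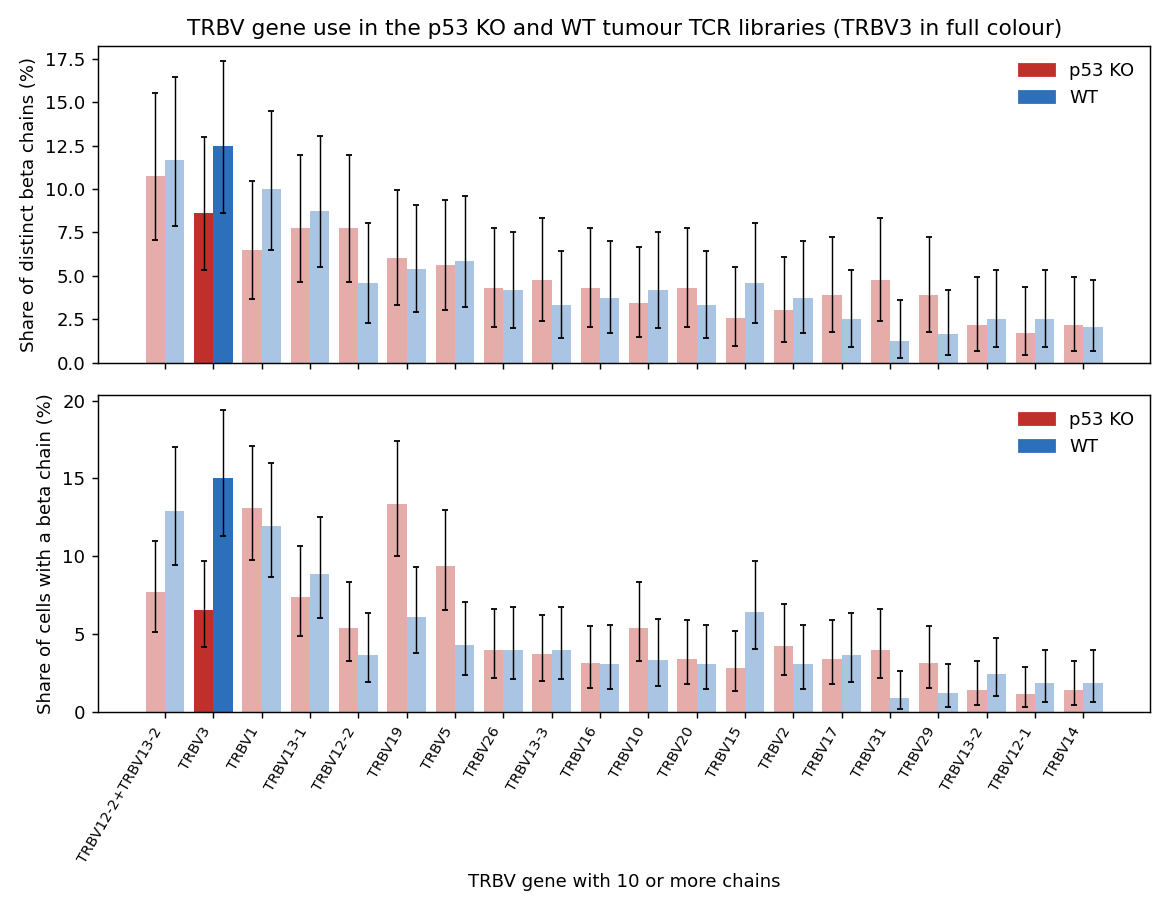
Share of distinct beta chains (top) and of cells with a beta chain (bottom), in percent, for each TRBV gene with 10 or more chains, with p53 KO left of WT and exact 95% intervals that cover counting error only. TRBV3, in full colour, has 8.62% of chains in p53 KO and 12.5% in WT, and 6.55% of cells in p53 KO and 15.03% in WT.

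Fewer TRBV3 cells shared their beta chain in p53 KO than in WT. The number of cells per chain enters the share of cells, which is among the values TRBV3 was chosen by. The clone sizes are therefore a description and not a separate result. In p53 KO, 18 of the 20 TRBV3 chains were found in 1 cell, 1 in 2 cells and 1 in 3 cells. In WT, 21 of the 30 chains were found in 1 cell, 3 in 2 cells, 3 in 3 cells, 2 in 4 cells and 1 in 5 cells. A TRBV3 chain thus averaged 1.15 cells in p53 KO and 1.63 cells in WT, while chains of other TRBV genes averaged 1.65 cells in p53 KO and 1.39 in WT. A TRBV19 chain of 31 cells and a TRBV1 chain of 30 cells weigh on the p53 KO mean. Without the 2 largest chains of each library, a step added after the data had been seen, other genes averaged 1.38 cells in p53 KO and 1.33 in WT. Of TRBV3 cells, 5 of 23 in p53 KO shared their beta chain with another cell, or 21.7% (7.46 to 43.7). Among cells of other TRBV genes in p53 KO the share was 178 of 333, or 53.5% (47.9 to 58.9), and without the TRBV19 and TRBV1 chains 117 of 272, or 43.0% (37.1 to 49.1), an interval that overlaps that of TRBV3. Low sharing in p53 KO was also seen in other genes, with 6 of 27 cells of TRBV12-2+TRBV13-2 and 2 of 19 cells of TRBV12-2. In WT the order was the other way round, with 28 of 49 TRBV3 cells, or 57.1% (42.2 to 71.2), and 121 of 280 cells of other genes, or 43.2% (37.3 to 49.2), with overlapping intervals.

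**Figure D2:**
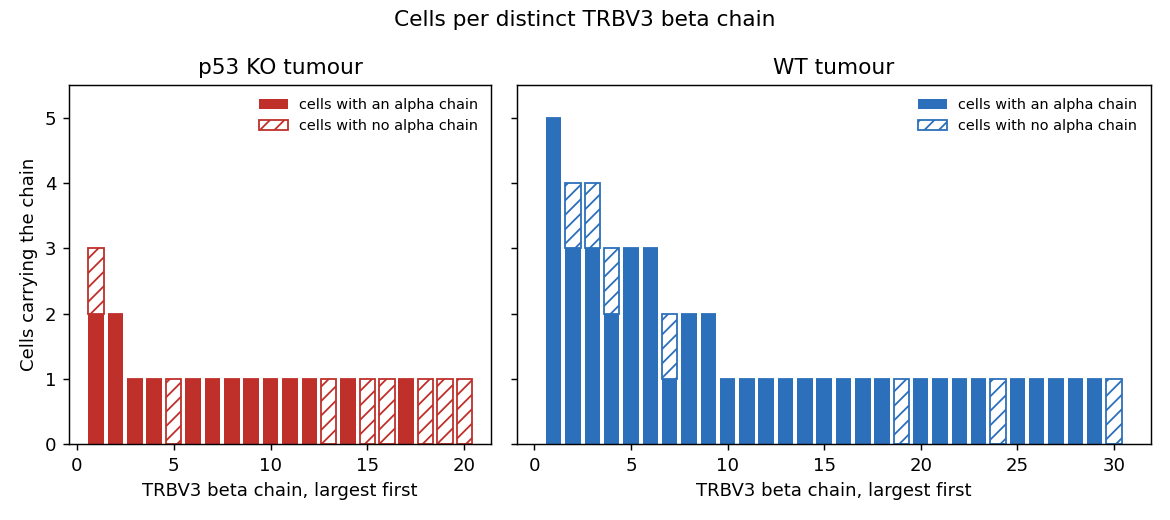
Number of cells (vertical axis) that carried each distinct TRBV3 beta chain, largest first, in the p53 KO tumour (left, 20 chains) and the WT tumour (right, 30 chains), with hatching for cells that had no alpha chain. The largest p53 KO chain has 3 cells, and the WT chains reach 5 cells.

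Neither p53 KO chain of several cells formed a deposited clonotype of several cells. The 3 cells with LGGGVSY, joined to TRBJ2-7, fell into 3 clonotypes, 1 with a TRAV5D-4 and TRAJ23 alpha chain, 1 with TRAV8-1 and TRAJ32, and 1 with no alpha chain. Their beta contigs rested on 2, 2 and 5 UMIs. The 2 cells with LAALGGL, joined to TRBJ2-3, fell into 2 clonotypes, but both held the same TRAV16N and TRAJ37 alpha chain beside another alpha chain. That alpha chain was seen in 3 cells of the library, 1 of them without this beta chain, and 1 of the LAALGGL cells also held a TRBV12-2 chain with 7 UMIs against 4 for TRBV3. By deposited clonotype the share of TRBV3 cells in clones of 2 or more cells was therefore 0 of 23 in p53 KO, or 0% (0 to 14.8). In WT it was 26 of 49, or 53.1% (38.3 to 67.5). Clonotype size was counted over cells with any beta chain, so the other cells of a clonotype need not carry TRBV3. Cells of other genes gave 155 of 333 in p53 KO, or 46.5%, and 106 of 280 in WT, or 37.9%. Doublets and free transcripts as a source of these differing alpha partners were not tested.

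Most WT chains of several cells kept 1 alpha partner. PDWGGADTG, with TRBJ2-2, was in 5 cells, and all 5 carried TRAV12D-3 with TRAJ18. Its contigs had 2, 2, 19, 19 and 21 UMIs, so 3 of the 5 had 19 or more. PGTGRGNNQ, with TRBJ1-5, was in 4 cells, 3 of them with TRAV5-1 and TRAJ7 and 1 with no alpha chain. FQGAE, with TRBJ2-3, was in 4 cells, 3 with TRAV7D-2 and TRAJ21 and 1 with none. SGIYT, with TRBJ1-1, was in 3 cells, all with TRAV4D-4 and TRAJ28. LVWGN, with TRBJ2-4, was in 3 cells, all with TRAV12-3 and TRAJ53, an alpha chain also seen in 2 cells outside this clone. The contigs of PGTGRGNNQ and FQGAE had at least 4 UMIs each. Those of SGIYT rested on 1, 1 and 16 UMIs and those of LVWGN on 1, 1 and 3, so only 1 contig of each had 3 or more.

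LVLGVLA, with TRBJ2-1, was the exception among WT chains of 3 or more cells. Its 3 cells fell into 3 clonotypes, with a TRAV14D-1 alpha chain, a TRAV3D-3 alpha chain and no alpha chain. The TRAV3D-3 chain was in 8 cells of the library, 7 of them outside this beta chain. The LVLGVLA contigs rested on 1, 9 and 13 UMIs. The remaining WT chains of several cells had 2 cells each, in 1 deposited clonotype each: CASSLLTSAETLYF, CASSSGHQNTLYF and a chain with the middle FRQGTNE. The first of these held 2 alpha chains in both cells. In size, the p53 KO chain of 3 cells stood behind 8 larger chains of the library, and the WT chain of 5 cells behind 4.

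The J segment supplies the end of the CDR3 and fixes the constant region. TRBJ2 genes were joined to 13 of 20 TRBV3 chains in p53 KO, or 65.0% (40.8 to 84.6), and to 19 of 30 in WT, or 63.3% (43.9 to 80.1). Among chains of other TRBV genes the share was 143 of 212 in p53 KO, or 67.5%, and 151 of 210 in WT, or 71.9%. The intervals of TRBV3 and of the other genes overlapped in both libraries. Every TRBV3 chain with a TRBJ1 gene was spliced to TRBC1 and every chain with a TRBJ2 gene to TRBC2, in 20 of 20 p53 KO and 30 of 30 WT chains, which is the order of these segments along the locus.

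Single J genes showed more scatter than the clusters. TRBJ2-5 led in p53 KO with 5 of 20 TRBV3 chains, or 25.0% (8.66 to 49.1), beside 18 of 212 chains of other genes, or 8.49% (5.11 to 13.1). TRBJ1-1 and TRBJ2-7 followed with 3 chains each. In WT TRBJ1-1, TRBJ1-4, TRBJ2-1 and TRBJ2-2 were tied at 4 of 30 chains, or 13.3% each (3.76 to 30.7). TRBJ2-7, the most used J gene of the other TRBV genes, joined 3 of 20 TRBV3 chains in p53 KO beside 46 of 212 chains of other genes, and 3 of 30 in WT beside 39 of 210. The total variation distance between the J use of TRBV3 and that of the other genes, which is 0% for identical and 100% for disjoint use, was 36.8% in p53 KO and 21.4% in WT. Such a distance tends to be larger over fewer chains, and TRBV3 had 20 chains in p53 KO and 30 in WT. Over both libraries, the TRBV genes with 20 or more chains whose J use lay nearest to that of TRBV3 were TRBV12-2+TRBV13-2, a combined name in the files, at 20.4%, TRBV5 at 21.9% and TRBV26 at 24.0%.

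**Figure D3:**
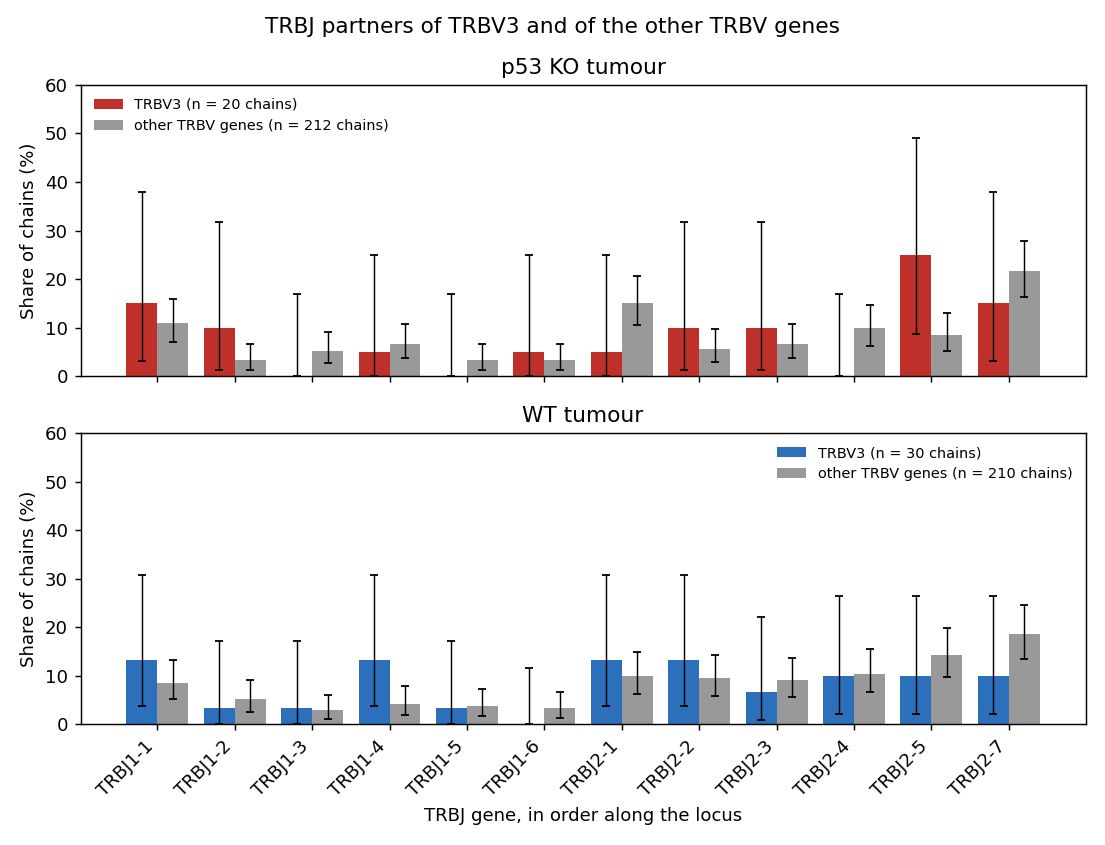
Share of chains, in percent, joined to each TRBJ gene for TRBV3 chains (coloured, left bars) and for chains of all other TRBV genes (grey) in the p53 KO tumour (top) and the WT tumour (bottom), with exact 95% intervals that cover counting error only. TRBJ2-5 has the tallest TRBV3 bar in p53 KO, at 25.0%, and 4 genes tie at 13.3% in WT.

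D segments are short and often trimmed beyond recognition. In the deposited annotation 4 of 20 TRBV3 chains in p53 KO carried TRBD1, 2 carried TRBD2 and 14 had no D gene. In WT 5 of 30 carried TRBD1, 1 carried TRBD2 and 24 had none. TRBD2 lies downstream of the TRBJ1 genes on chromosome 6, at 41542163 to 41542176, and TRBD1 upstream of them, at 41533201 to 41533212. In both libraries 0 TRBV3 chains, and 0 chains of other genes, joined TRBD2 to a TRBJ1 gene.

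Residues that D segments commonly leave were searched in the middle of the CDR3. DR or GQ, which TRBD1 can encode, was in 4 of 20 p53 KO and 4 of 30 WT chains of TRBV3, and DW or GL, which TRBD2 can encode, was in 4 of 20 p53 KO and 5 of 30 WT chains. Chains of other genes held DR or GQ in 33 of 212 cases in p53 KO and 27 of 210 in WT, and DW or GL in 28 of 212 in p53 KO and 29 of 210 in WT. GTG, which either D segment can give, was in 3 of 20 p53 KO and 1 of 30 WT chains of TRBV3, beside 10 of 212 and 14 of 210 chains of other genes in p53 KO and WT. The intervals of TRBV3 and of the other genes overlapped for each of these motifs in both libraries. The same residues can also come from added bases or J codons, so a motif does not show which D segment was used. GL, for example, also stood in a WT chain of TRBV3 joined to TRBJ1-1, which lies upstream of TRBD2.

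The D segments could also be compared by bases, since most chains had no deposited D gene. A search of the coding strand of the CDR3 for ACTGGG and for ACAGGG, chosen after the sequences had been seen, found ACTGGG in 4 of 20 TRBV3 chains in p53 KO and in 9 of 30 in WT. All 13 of these chains used a TRBJ2 gene. Chains of other genes held it in 42 of 212 cases in p53 KO and 45 of 210 in WT, again with a TRBJ2 gene in every case. ACAGGG was in 5 of 20 p53 KO chains of TRBV3, 1 with a TRBJ1 and 4 with a TRBJ2 gene, and in 5 of 30 WT chains, all with a TRBJ1 gene. Other genes held it in 32 of 212 chains in p53 KO and 30 of 210 in WT, of which 0 were deposited as TRBD2 in either library. Of the 13 TRBV3 chains with ACTGGG, 10 had no deposited D gene and 1 p53 KO chain, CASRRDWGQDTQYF, was deposited as TRBD1. The same letters can also arise from added bases, and no match says only that the letters are not in the CDR3.

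CDR3 length differed between the libraries, and between TRBV3 and the other genes, by less than its spread over chains. TRBV3 chains had a CDR3 of 13.95 ± 1.39 amino acids in p53 KO (SD over 20 chains) and 14.07 ± 1.39 in WT (SD over 30 chains), both with a range of 11 to 17. Chains of other TRBV genes averaged 14.01 ± 1.40 amino acids in p53 KO (212 chains) and 13.87 ± 1.55 in WT (210 chains). The most frequent length of TRBV3 chains was 13 in both, with 6 of 20 chains in p53 KO and 10 of 30 in WT. Of other chains, 40 of 212 in p53 KO and 37 of 210 in WT had that length.

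The front of the CDR3 is largely written by the V segment, and the other genes pooled here are many V segments. CASS opened 18 of 20 TRBV3 chains in p53 KO and 29 of 30 in WT, and CASR opened the remaining 2 in p53 KO and 1 in WT. CASSL opened 9 of 20 TRBV3 chains in p53 KO, or 45% (23.1 to 68.5), and 11 of 30 in WT, or 36.7% (19.9 to 56.1). Among other genes it opened 21 of 212 chains in p53 KO, or 9.91%, and 22 of 210 in WT, or 10.5%. All 9 of the p53 KO chains wrote this leucine as TTA, as did 8 of the 11 WT chains. The TTA codon stood at that place in 11 of 212 chains of other genes in p53 KO and 6 of 210 in WT. These openings and the residues below, except for hydropathy, were picked after the sequences had been seen.

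Leucine stood in the middle of the same share of TRBV3 CDR3s in both libraries. It was present in 10 of 20 chains in p53 KO, or 50.0% (27.2 to 72.8), and in 15 of 30 in WT, or 50.0% (31.3 to 68.7). Chains of other genes held it in 52 of 212 cases in p53 KO, or 24.5% (18.9 to 30.9), and in 49 of 210 in WT, or 23.3% (17.8 to 29.6). The intervals did not overlap in WT, and did in p53 KO. Leucine was the first residue of the middle in 9 of these 10 p53 KO chains and 11 of these 15 WT chains, which are the CASSL openings counted above and not a separate trait. Aspartate, an acidic residue, was in 6 of 20 TRBV3 chains in p53 KO and 7 of 30 in WT, beside 95 of 212 and 97 of 210 chains of other genes in p53 KO and WT. Runs of 2 or more glycines were in 6 of 20 TRBV3 chains in p53 KO, beside 64 of 212 of other genes, and in 4 of 30 in WT, beside 61 of 210.

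Hydropathy measures how strongly residues avoid water, and on the Kyte-Doolittle scale a positive mean marks a loop that is on balance hydrophobic. The middle was positive in 4 of 20 TRBV3 chains in p53 KO, or 20% (5.73 to 43.7), and in 10 of 30 in WT, or 33.3% (17.3 to 52.8). Other genes gave 25 of 212 chains in p53 KO, or 11.8% (7.78 to 16.9), and 28 of 210 in WT, or 13.3% (9.05 to 18.7). The mean was -0.93 in p53 KO and -0.67 in WT for TRBV3, with an SD over chains of 1.32 in p53 KO and 1.27 in WT, and -1.13 in p53 KO and -1.12 in WT for other genes. All 4 positive p53 KO chains and 6 of the 10 positive WT chains began their middle with leucine. LVLGVLA of the WT library had the highest value of all TRBV3 chains, 3.03, and LAALGGL the highest in p53 KO, 2.03, and both are among the chains of several cells printed above. Leaving out 3 residues at each end in place of 4, the positive share was 15% in p53 KO and 10.0% in WT, so the order of the libraries depends on how many end residues are left out.

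**Figure D4:**
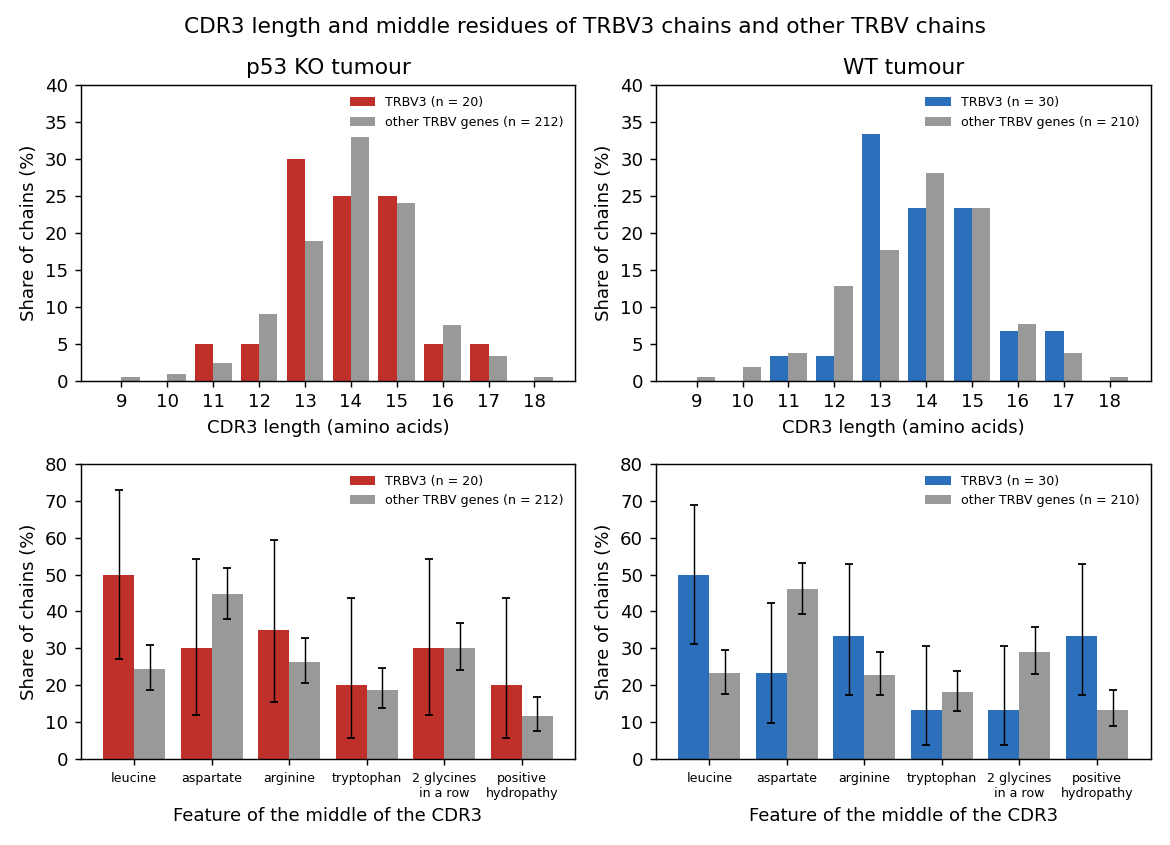
Share of chains, in percent, by CDR3 length in amino acids (top) and by features of the middle of the CDR3 (bottom) for TRBV3 chains (coloured) and chains of other TRBV genes (grey), with p53 KO left and WT right; bars in the lower panels carry exact 95% intervals that cover counting error only. Leucine is in 50.0% of TRBV3 chains in both libraries, beside 24.5% of other chains in p53 KO and 23.3% in WT.

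Similar CDR3s in separate T cells can mark receptors for the same peptide, so pairs of TRBV3 chains of equal length with at most 1 different amino acid were counted. In p53 KO 0 of 190 possible pairs met this rule. In WT 1 of 435 pairs did, with both chains joined to TRBJ1-4. Its members carry the middles FRQGTNE and PRQGTNE and differ by F5P, counted from the first residue of the CDR3. A chain with the middle FRQGASE came next, at 2 differences from FRQGTNE, T9A and N10S. In the sequences below capitals mark the codons whose amino acid differs from that of the chain named beside each.

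WT FRQGTNE, against PRQGTNE: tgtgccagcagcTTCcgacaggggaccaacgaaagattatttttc
WT PRQGTNE, against FRQGTNE: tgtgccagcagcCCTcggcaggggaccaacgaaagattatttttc
WT FRQGASE, against FRQGTNE: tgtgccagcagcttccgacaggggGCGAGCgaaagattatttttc

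FRQGTNE and PRQGTNE differ at 4 bases, and FRQGTNE and FRQGASE at 3. They were found in 2, 1 and 1 cells, in the order printed. Their alpha chains of most UMIs were different: TRAV12-2 with TRAJ22 beside FRQGTNE, TRAV10 with TRAJ43 beside PRQGTNE, and TRAV12-2 with TRAJ44 beside FRQGASE. Only 1 of the 2 FRQGTNE cells had an alpha chain. The FRQGASE cell also held a TRAV12D-3 and TRAJ37 alpha chain, which was seen in 3 cells outside this beta chain. Among other TRBV genes, compared within each gene, 2 of 1289 pairs in p53 KO and 6 of 1427 in WT had at most 1 difference, which in WT is 0.420% of pairs beside 0.230% for TRBV3. By chains with a similar partner the order in WT was the other way, 2 of 30 for TRBV3, or 6.67%, beside 11 of 210 for other genes, or 5.24%, so the counts are too few to order them. At most 2 differences left 0 TRBV3 pairs in p53 KO and gave 2 in WT.

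The p53 KO and WT libraries had 0 TRBV3 CDR3s in common, by nucleotides or by amino acids. This overlap was counted for TRBV3 only, so it cannot set TRBV3 apart from other TRBV genes. The nearest pair between them was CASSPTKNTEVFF in p53 KO and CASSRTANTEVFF in WT, both with TRBJ1-1, which differ by P5R and K7A. The CDR3 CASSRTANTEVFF of the WT library was also found, with 3 different bases, in a TRBV26 chain of 1 cell of the same library.

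Alpha chains give the receptor its other chain, and they are captured separately. An alpha chain was assembled in 15 of 23 TRBV3 cells in p53 KO, or 65.2% (42.7 to 83.6), and in 42 of 49 in WT, or 85.7% (72.8 to 94.1). Cells of other TRBV genes had one in 249 of 333 cases in p53 KO, or 74.8%, and in 238 of 280 in WT, or 85.0%. The paired share was lower in p53 KO among TRBV3 and among other genes, and the intervals of TRBV3 overlapped between the libraries. A second beta chain was present in 5 of 23 TRBV3 cells in p53 KO, or 21.7% (7.46 to 43.7), beside 22 of 333 cells of other genes, or 6.61% (4.19 to 9.83), and in 3 of 49 in WT beside 14 of 280. The second chain of these 5 p53 KO and 3 WT cells was of another TRBV gene, so they are also counted among the cells of other genes. TRBV3 had more UMIs than the second chain in 2 of the 5 p53 KO cells and in 2 of the 3 WT cells. Whether such cells were doublets was not tested.

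The alpha partners were diverse. Counting each combination of a beta chain with the alpha chain of most UMIs in the cell once, TRBV3 had 15 combinations in p53 KO with 13 TRAV and 13 TRAJ genes, and 29 in WT with 23 TRAV and 21 TRAJ genes. All 15 of these top alpha chains in p53 KO and all 29 in WT were different. Keeping only the top alpha chain of a cell hides repeats. The 2 LAALGGL cells of p53 KO shared a TRAV16N and TRAJ37 chain, but count as 2 combinations. So do the 2 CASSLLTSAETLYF cells of WT, which shared a TRAV14D-1 and TRAJ9 chain. Other genes had 147 different alpha chains over 179 combinations in p53 KO and 185 over 198 in WT, and more combinations leave more room for repeats. In p53 KO TRAV16N and TRAV5D-4 had 2 combinations each, as did TRAJ27 and TRAJ49, and every other gene had 1. In WT TRAV14D-1 and TRAJ22 led with 3 each. Genes of the TRAV12 family took 6 of 29 in WT, or 20.7% (7.99 to 39.7), beside 16 of 198 among other TRBV genes (4.69 to 12.8), with overlapping intervals. In p53 KO the same family took 1 of 15 beside 13 of 179. Invariant NKT alpha chains, TRAV11 or TRAV11D with TRAJ18, were in 0 of the 15 p53 KO and 0 of the 29 WT combinations of TRBV3, beside 6 of 179 in p53 KO and 0 of 198 in WT among other genes. MAIT alpha chains, TRAV1 with TRAJ33, were in 0 combinations of TRBV3 and of other genes in both libraries. These counts are too few to set TRBV3 apart. Invariant NKT and MAIT chains are those of T cells that read lipids and vitamin metabolites in place of peptides. TRAJ18 did occur with other V genes, beside TRAV12D-3 in the WT clone of 5 cells and beside TRAV1 in 1 p53 KO cell.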

How the data were processed

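For the p53 KO and the WT TCR library, the authors deposited their filtered contigs as 1 row per assembled chain, with its gene segments, loop sequences, clonotype and barcode. The read and UMI columns hold unnormalized counts, per the file headers. The submitters' processing notes name Cell Ranger 6.1.1 and mm10. The version of its TCR reference was not given in the sources used here. Coordinates are those of RefSeq genes in GRCm38.p6, the assembly of mm10.

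All beta contigs named TRBV3 were taken with no UMI minimum, and chains were counted as stated in the report with Python 3.11.15, pandas 2.3.3 and scipy 1.17.1. Alpha partners are the alpha contig of most UMIs in a cell, and the searches for similar CDR3s ran within each TRBV gene and library. The counting was tested on simulated contigs with known answers. Since each genotype has 1 library, values are given with counting intervals and without tests. No doublet caller was run, and cells with several beta contigs were left out as an alternative.

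TRBV genes named beside TRBV3 were those nearest to it by J use (20 or more chains) or by the ratio of p53 KO to WT share (10 or more chains), those past 1.5-fold, and the genes of chains printed. TRBJ, TRAV and TRAJ genes are the most used ones with TRBV3, and chains are those of 3 or more cells or with a similar CDR3. The p53 KO chain LAALGGL, the 3 WT chains of 2 cells, TRBV19, TRBV12-2, the TRAV12 family and the single-cell chain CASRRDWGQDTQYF were named after their values had been seen. TRBV3, the motifs and the lists were chosen with earlier results of these data known.

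Alternatives counted by deposited clonotype, by amino acid sequence or by cells, or kept paired cells, cells with 1 beta contig, contigs of 3 or more UMIs or the top contig of a cell. Others left out the largest TRBV3 chain, allowed 2 differences between CDR3s or left out 3 residues at each CDR3 end. Clones by deposited clonotype, the share among chains of 1 cell and leaving out the 2 largest chains of each library were added after the data had been seen.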

Additional observations from a re-analysis of the deposited data

How the results depend on the processing

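The lower TRBV3 share of chains in p53 KO than in WT kept its direction under all 8 alternatives. TRBV3 was chosen by its lower share in these same libraries, so the kept direction is a description and no support. The alternative that counted cells in place of chains gave -8.48 percentage points, which is the share of cells reported above. The others ran from -5.19 in paired cells to -1.65 among chains of 1 cell. For cells the lower share kept its direction under all 6, from -9.37 to -7.72, with the same limit. The share of TRBV3 cells in chains of 2 or more cells, 21.7% in p53 KO, was 10% without the largest TRBV3 chain and 11.1% with 3 or more UMIs, against 52.3% and 45.95% in WT under the same settings. Counting clones by deposited clonotype moved it to 0% in p53 KO, and the difference from WT to -53.1 points, since both p53 KO chains of several cells are split over clonotypes. With contigs of 3 or more UMIs the share of TRBV3 cells with an alpha chain was 33.3% in p53 KO and 70.3% in WT, because that minimum also removes alpha contigs. The difference in TRBJ2 share, p53 KO minus WT, was 1.67 points and turned to -9.12 in paired cells. The difference in positive hydropathy, p53 KO minus WT, was -13.3 points and turned to 5 with 3 end residues left out, where WT stood at 10%, and to 1.14 in paired cells. Against other TRBV genes in p53 KO, the difference in TRBJ2 share, TRBV3 minus others, was -2.45 points. It turned to 5.48 by deposited clonotype, 6.35 with 1 beta contig per cell, 0.859 with 3 or more UMIs and 3.72 with the top contig. The same difference in mean CDR3 length in p53 KO, -0.059 amino acids, turned to 0.00952 by deposited clonotype and 0.0636 with 3 or more UMIs. The cause of these turns was not tested. No paired analysis was possible because each genotype has 1 library. Small numbers of TRBV3 chains, 20 in p53 KO and 30 in WT, limit every share, and a count of 0 covers counting error only.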
